A study of Eucalyptus urophylla with 24 samples.

Results

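The bud to young leaf change in triploid *Eucalyptus urophylla* was described from 6 of the 24 RNA sequencing libraries of the series. These are the 3 triploid libraries labelled juvenile leaf, here called young leaf, and the 3 triploid libraries labelled terminal bud. All 26033 genes of the deposited table were members, and none was chosen by its values. The series also holds mature and senescent leaves of the triploid and the same 4 stages of diploid *E. urophylla*, with 3 libraries each, and the triploid was obtained by sexual polyploidization. The sources used here do not state how many clones or trees the libraries stand for, so the p-values cover only the variation among the libraries sequenced, which may be technical. The study followed genes of chlorophyll synthesis over leaf stages and ploidies, and the comparison here asks which functions were higher or lower in the young leaf than in the bud.

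A terminal bud holds the shoot apical meristem and the youngest leaf primordia, in which cells divide, organ boundaries form and the upper and lower leaf sides are set. As a leaf opens, division gives way to cell expansion, proplastids become chloroplasts, and the blade begins to fix carbon. Nuclear genes for light-harvesting proteins, photosystem subunits and Calvin cycle enzymes are the best known genes of this change, and ribosomal proteins, histones and meristem regulators are typical of dividing tissue.

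The 6 libraries held 41525859 to 53689283 counted reads, and pairs of libraries of a group had a correlation of 0.987 to 0.991 in log2 CPM. No library stood apart, with an SD of the log2 deviation from the group mean of 0.114 to 0.147 over genes. Levels are given as deposited FPKM, fragment counts scaled by transcript length and library total, and changes as log2 fold changes of the read counts, young leaf over terminal bud, with their standard error (SE). The counts were scaled by TMM factors, which were 1.0892 to 1.1083 in young leaves and 0.8998 to 0.9258 in buds. Without these factors the median change of all genes was 0.31 on the log2 scale, against 0.04 with them, and ratios of the deposited FPKM carry the same shift. In bulk tissue, fewer cells of a type and less RNA per cell cannot be told apart.

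The labels were checked against defining genes. Of 21 measured genes of light-harvesting proteins, Rubisco small chains and Rubisco activase, 19 were higher in young leaves and 2 were lower, and their summed level was 18814 to 19336 FPKM in young leaves against 6718 to 7281 FPKM in buds. Of 10 measured shoot apex genes, 3 were higher in young leaves and 5 were lower, which length-trend offsets (below) turned to 4 higher and 2 lower, and their summed level was 160 to 164 FPKM in young leaves and 134 to 147 FPKM in buds. Both measured class I knotted-like genes, which in other plants are active in the meristem, were at 1.88, 1.89 and 2.03 FPKM in young leaves and 24.9, 22.2 and 21.1 FPKM in buds for Eucgr.F00106, and at 1.99, 1.68 and 1.99 against 15.2, 14.8 and 13.2 FPKM for Eucgr.H03292. Of the class II knotted-like genes, Eucgr.C00434 and Eucgr.C02727 lay the other way, at 89.6, 89.9 and 92.8 against 34.1, 54.6 and 52.5 FPKM and at 25.3, 27.3 and 25.2 against 13.2, 8.59 and 11.7 FPKM. CUP-SHAPED COTYLEDON 1, Eucgr.F01539, was not called (log2 0.04, adjusted p 0.88), and its FPKM overlapped between the groups. By its summed level the shoot apex list was thus not higher in buds. Light-harvesting genes summed to 36814 to 37295 FPKM in young leaves and to 22773 to 25423 FPKM in buds, so both tissues held these transcripts at high levels.

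Most transcripts differed between the 2 tissues. Of 20037 genes tested, 7011 were higher in young leaves (35.0% of the genes tested) and 6616 were lower (33.0%), at a Benjamini-Hochberg adjusted p under 0.05 in edgeR's quasi-likelihood test. With a change of at least 2-fold, 3362 were higher (16.8%) and 3157 were lower (15.8%). The FPKM of the 3 young leaf and 3 bud libraries did not overlap in 15172 genes (75.7%). With total counts in place of the TMM factors 9050 genes were higher and 4902 lower, so 64.9% of the calls were higher, against 51.4%. Since 68.0% of the genes were called, the counts for each gene list below are read against these shares.

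The change also followed transcript length, in every library. In the shortest of 10 equal bins of the genes (219 to 788 bases, as implied by the deposited counts and FPKM) the median change was −0.77, and in the longest bin (3180 to 15444 bases) it was 0.82. Genes of the longest bin lay 0.467, 0.579 and 0.413 above the 6-library mean in young leaves, and −0.468, −0.431 and −0.536 from it in buds, as medians on the log2 scale. The diploid showed the same order, with −0.903 and 0.556 in these bins. Where the trend comes from was not tested. A fit with an offset per library that removes it called 6166 genes higher (30.8%) and 6505 lower (32.5%), and its counts are given with those of the gene groups.

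**Figure D1:**
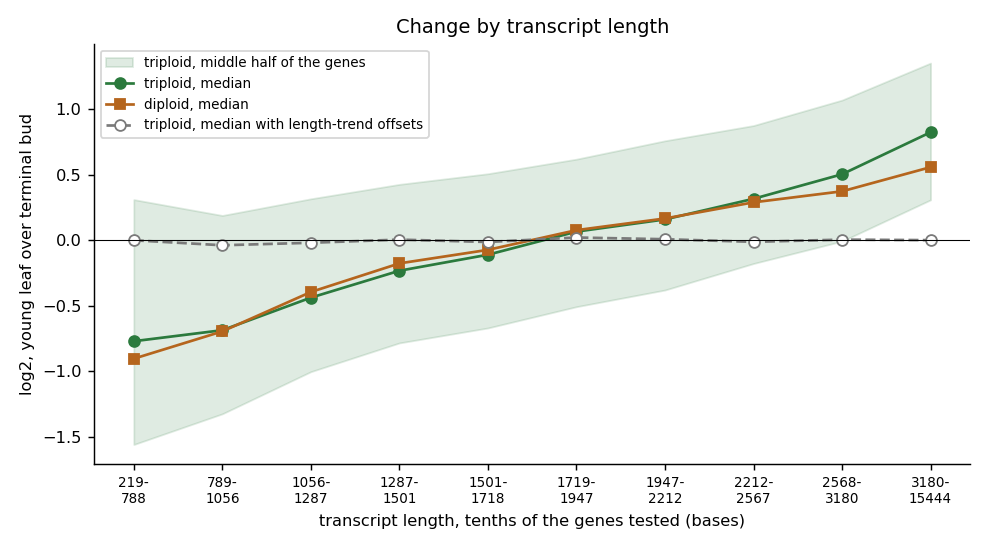
Median log2 fold change of young leaf over terminal bud (vertical axis) in 10 equal bins of the genes tested by transcript length in bases (horizontal axis), for the triploid (circles, with the range between the quartiles shaded), the diploid (squares) and the triploid with length-trend offsets (open circles). The triploid median runs from −0.77 in the shortest bin to 0.82 in the longest and is near 0 in every bin with the offsets.

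Genes of photosynthesis were higher in young leaves as groups. Of 48 genes of the Calvin cycle and photorespiration, 44 passed the filter on low counts, 29 were higher and 11 were lower, with a median change of 1.19 against 0.04 over all genes. Their summed level was 25572 to 26380 FPKM in young leaves and 7275 to 7390 FPKM in buds. With length-trend offsets 29 were higher and 9 lower, so the counts hardly moved.

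The sum was carried by Eucgr.J01502, annotated to the Rubisco complex that fixes carbon dioxide, with 17118, 16698 and 17675 FPKM in young leaves against 4664, 4658 and 4809 FPKM in buds (log2 1.58, SE 0.04, adjusted p 3.2e-08). Rubisco activase, which frees the enzyme of bound inhibitors, had 4 measured copies. Eucgr.J02030 (chromosome 10, 25600920 to 25603711) had 1011, 1128 and 1078 FPKM in young leaves against 106, 118 and 104 FPKM in buds (log2 3.01, SE 0.06, adjusted p 2.8e-08). Every young leaf library was above every bud library by a wide margin.

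A second activase gene, Eucgr.B02310 (chromosome 2, 42054244 to 42056995), was the member of this list with the largest rise, at 177, 212 and 173 against 8.31, 8.87 and 7.49 FPKM (log2 4.23, SE 0.10, adjusted p 3e-08). The A subunit of plastid glyceraldehyde-3-phosphate dehydrogenase, the reducing step of the cycle, was at 1406, 1437 and 1420 against 284, 277 and 261 FPKM for Eucgr.I01564 (log2 2.09, SE 0.05, adjusted p 2.8e-08). Not all copies moved together. A minor Rubisco small chain gene, Eucgr.B03013, fell, with 13.6, 13.0 and 11.6 FPKM in young leaves against 32.4, 32.7 and 40.4 FPKM in buds (log2 −1.75, SE 0.12, adjusted p 1.9e-06).

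Chlorophyll synthesis genes rose with them. Of 31 genes 30 were tested, 25 were higher and 4 were lower (25 and 4 with length-trend offsets), with a median of 1.18 and a summed level of 2286 to 2535 FPKM in young leaves against 1213 to 1318 FPKM in buds. The most abundant was Eucgr.A02177, a cyclase that closes the fifth ring of the chlorophyll precursor, at 622, 643 and 473 against 197, 113 and 96.0 FPKM (log2 1.82, SE 0.25, adjusted p 0.00015). Its libraries spread more than those of most genes named here, and the groups did not overlap. The tetrapyrrole-binding protein Eucgr.H00371, of a family that stimulates magnesium chelatase, rose less, at 191, 215 and 210 against 107, 124 and 118 FPKM (log2 0.54, SE 0.07, adjusted p 0.00017). The list's largest fall, in Eucgr.I00566, was in 1-deoxy-D-xylulose-5-phosphate synthase 2, an entry enzyme of plastid isoprenoid synthesis that the annotation places under chlorophyll synthesis, with 47.1, 48.9 and 49.5 against 178, 144 and 183 FPKM (log2 −2.08, SE 0.10, adjusted p 2.5e-07).

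Light-harvesting proteins, which bind chlorophyll and pass excitation to the photosystems, rose in 18 of 21 measured genes, and 1 was lower (19 and 0 with length-trend offsets; median 0.92). Eucgr.A01047, chlorophyll a-b binding protein 36, had 3636, 3720 and 3690 FPKM in young leaves against 1237, 1368 and 1227 FPKM in buds (log2 1.25, SE 0.04, adjusted p 8.7e-08), and Eucgr.D00322, annotated as an antenna protein without a name, 3736, 3628 and 3770 against 1600, 1674 and 1565 FPKM (log2 0.92, SE 0.04, adjusted p 1.8e-07). The largest rise was in a photosystem I antenna gene, Eucgr.C03307, at 80.1, 90.2 and 81.1 against 19.8, 20.8 and 16.9 FPKM (log2 1.85, SE 0.09, adjusted p 2.5e-07).

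The exception was the most abundant of them. Eucgr.E02381 had 13375, 13482 and 12913 FPKM in young leaves and 14448, 15075 and 13257 FPKM in buds, and the groups overlapped. Its change was −0.39 (SE 0.04, adjusted p 3.3e-05) with TMM factors and 0.14 (adjusted p 0.036) with length-trend offsets, so its direction is not settled. In each bud library this gene held more of the summed light-harvesting level than all the other members together.

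Of 65 measured subunits of the photosystems, the cytochrome complex, the plastid ATP synthase and their electron carriers, 42 were higher and 13 lower (45 and 9 with length-trend offsets; median 0.54). Their summed level was 27017 to 28071 FPKM in young leaves and 15657 to 16123 FPKM in buds. Eucgr.I02744, annotated to photosynthetic electron transfer, was the most abundant, at 3278, 3315 and 3588 against 2023, 1924 and 2096 FPKM (log2 0.47, SE 0.06, adjusted p 9.4e-05). Plastid ribosomal proteins, which translate the chloroplast's own messages, were higher in 22 of 33 and lower in 4 (28 and 4 with offsets; median 0.43). Their largest rise was in Eucgr.H04084, the plastid 30S protein S1, at 187, 195 and 196 against 52.8, 63.1 and 60.2 FPKM (log2 1.43, SE 0.07, adjusted p 3.5e-07). The most abundant members were not called. These were the 50S protein L5, Eucgr.D02319 (log2 −0.04, adjusted p 0.46), and the 30S protein S17, Eucgr.F03039 (log2 0.11, adjusted p 0.15). With offsets their changes were 0.37 and 0.89.

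**Figure D2:**
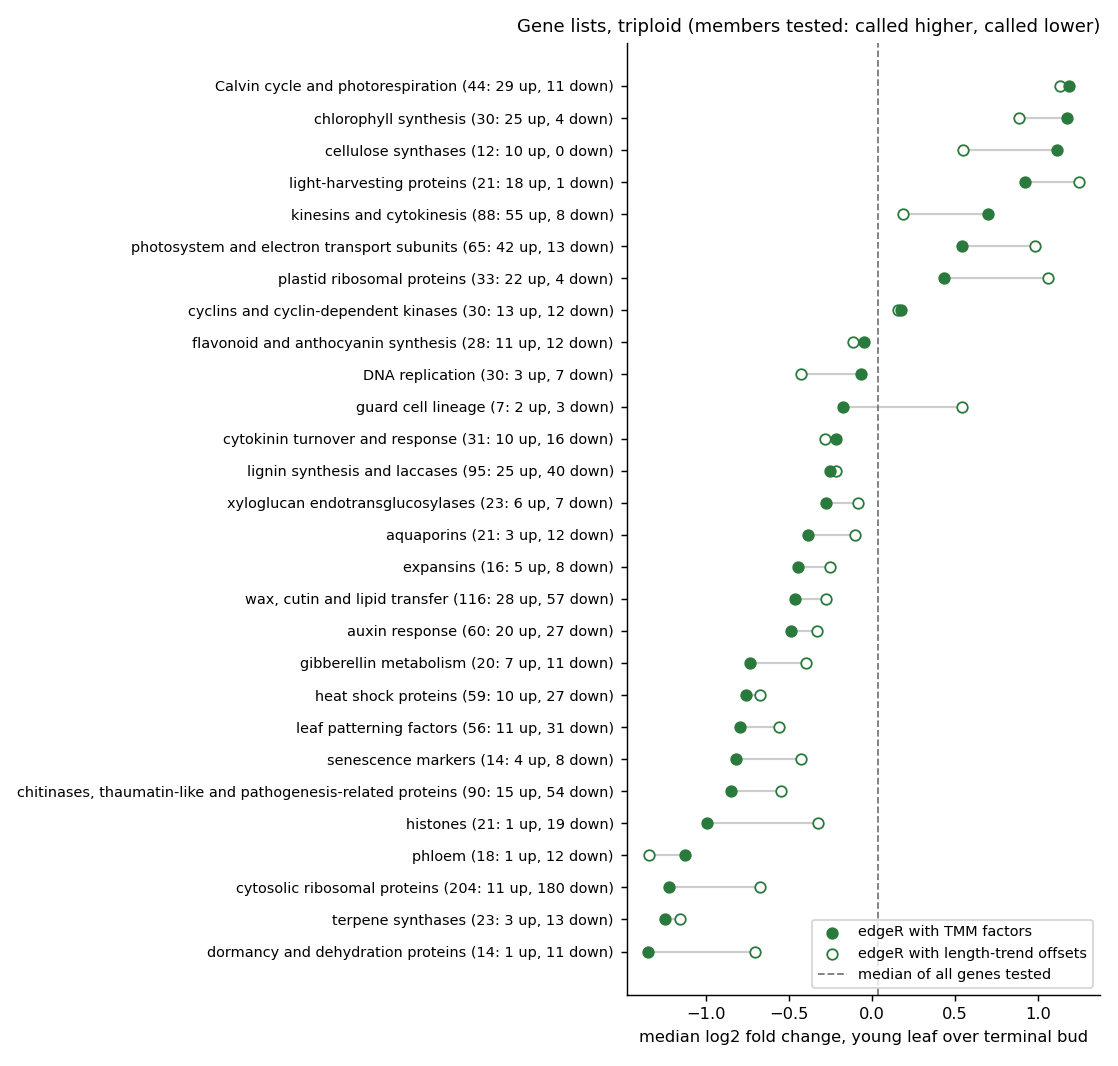
Median log2 fold change of young leaf over terminal bud (horizontal axis) for 28 gene lists, with TMM factors (filled circles) and with length-trend offsets (open circles), and the median of all genes tested (dashed line). Beside each list stand its members tested and how many were called higher and lower. The guard cell list changes side with the offsets. Photosynthesis lists lie on the right, and cytosolic ribosomal proteins, phloem, terpene synthases and dormancy proteins on the left under both fits.

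The 15 largest rises in young leaves among abundant genes with a known product follow, in a grouping made after their values were seen. Genes of chloroplast movement, a chloroplast protein and a B-box regulator are given first, then sugar metabolism, then the rest. They were taken from 3183 genes that passed the test, did not overlap between the groups and reached 20 FPKM in the higher group. Phototropin-2, a blue light receptor that drives chloroplast movement, had 33.2, 43.3 and 29.2 FPKM in young leaves against 2.68, 3.04 and 2.45 FPKM in buds for Eucgr.I01551 (log2 3.40, SE 0.15, adjusted p 1.6e-07). Eucgr.F01546, whose product in Arabidopsis is needed for chloroplasts to gather under weak light, was at 23.6, 26.9 and 22.0 against 2.69, 2.47 and 2.24 FPKM (log2 3.0, SE 0.10, adjusted p 6.2e-08). Both are long transcripts (5011 and 3874 bases), and with length-trend offsets their changes were 2.45 and 2.22. A chloroplast RHOMBOID-like protein, Eucgr.J01471, had 24.8, 26.7 and 25.1 against 1.60, 1.13 and 0.800 FPKM (log2 4.15, SE 0.20, adjusted p 3e-07), and the B-box regulator CONSTANS-LIKE 6, Eucgr.B00721, 65.4, 72.5 and 68.7 against 5.16, 6.09 and 4.45 FPKM (log2 3.44, SE 0.11, adjusted p 5e-08).

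In sugar metabolism, the large subunit of ADP-glucose pyrophosphorylase, the entry step of starch synthesis, was at 38.9, 46.0 and 40.9 FPKM in young leaves against 3.33, 3.21 and 3.36 FPKM in buds for Eucgr.B01108 (log2 3.38, SE 0.09, adjusted p 3.5e-08). A cytosolic fructose-bisphosphate aldolase, Eucgr.F02017, had 98.6, 105 and 105 against 3.22, 3.34 and 2.47 FPKM (log2 4.81, SE 0.11, adjusted p 2.8e-08). The sugar carrier SWEET1, Eucgr.F02749, was at 53.0, 52.7 and 50.8 against 3.65, 5.55 and 4.25 FPKM (log2 3.25, SE 0.14, adjusted p 1.5e-07). In no bud library did any of these 3 genes exceed 5.55 FPKM. ERD6-like 6, a further sugar transporter (Eucgr.I02437), rose with log2 3.31 (SE 0.21, adjusted p 1.4e-06).

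The largest rise among these genes was in the GDSL lipase LTL1, Eucgr.B02163 (chromosome 2, 40747897 to 40751091), of a family that acts on lipids, with 370, 471 and 377 FPKM in young leaves against 10.2, 12.7 and 11.0 FPKM in buds (log2 4.89, SE 0.12, adjusted p 3.2e-08). A pair of cell wall proteins followed. The extensin-like EPR1, Eucgr.J01410, was at 122, 127 and 101 against 9.49, 12.8 and 8.69 FPKM (log2 3.22, SE 0.15, adjusted p 2.1e-07), and the proline-rich protein 4, Eucgr.I01377, at 86.5, 100 and 76.2 against 7.30, 10.6 and 7.53 FPKM (log2 3.09, SE 0.15, adjusted p 3.2e-07). The detoxifying enzymes aldehyde dehydrogenase 3F1 (Eucgr.B03683, log2 3.03, SE 0.20) and 2-alkenal reductase (Eucgr.G01686, log2 3.44, SE 0.18) completed the 15 largest rises. These include the activase genes Eucgr.J02030 and Eucgr.B02310. The wider list of wax, cutin and lipid transfer genes, which holds LTL1, leaned the other way, with 57 lower and 28 higher of 116 measured (51 and 36 with offsets; median −0.47), and summed to 14811 to 15484 FPKM in young leaves against 18545 to 19992 FPKM in buds.

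**Figure D3:**
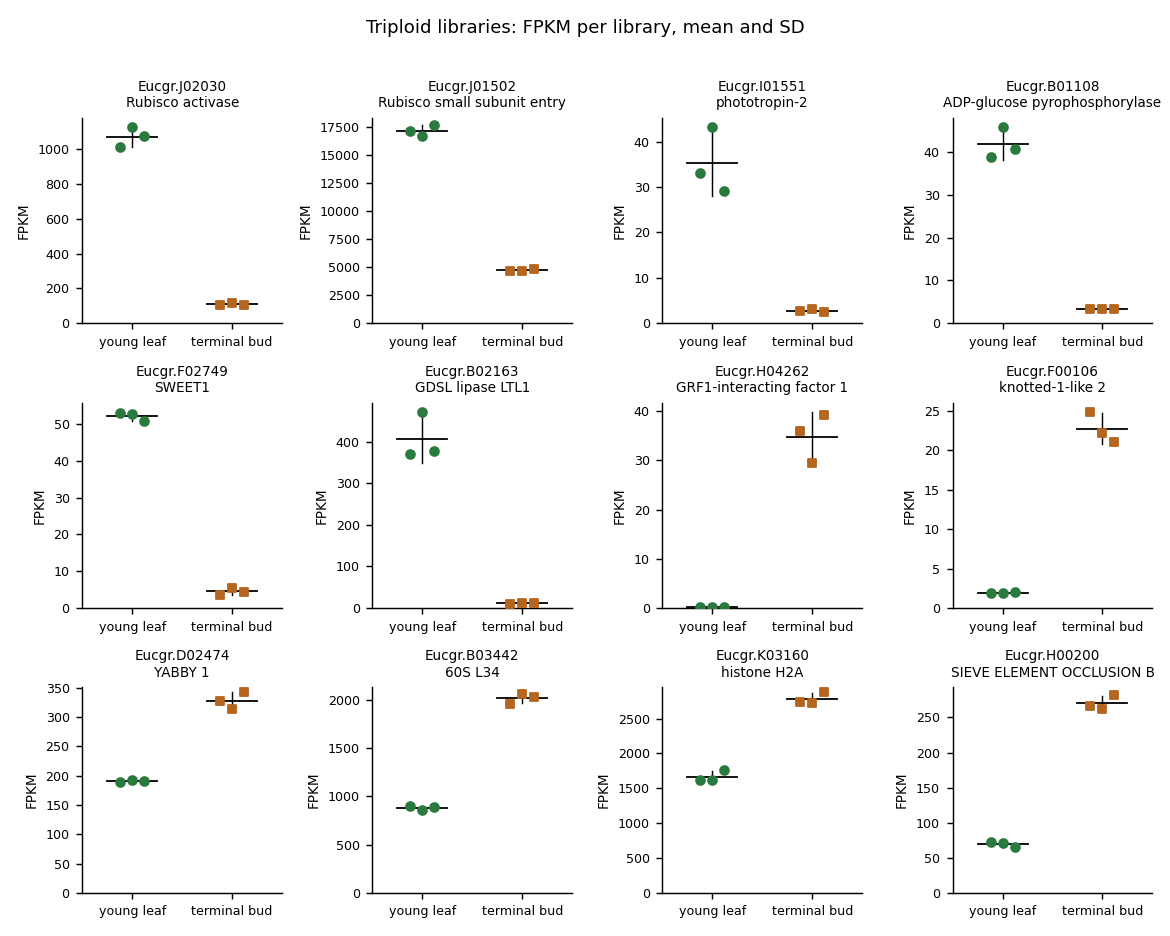
FPKM per library (vertical axes, from 0) of 12 genes in the 3 triploid young leaf libraries (circles) and the 3 triploid terminal bud libraries (squares), with mean (bar) and SD (vertical line). The first 6 genes, to LTL1, are higher in young leaves, and the last 6, from GRF1-interacting factor 1 on, are higher in buds. The 2 groups do not overlap in any of the 12 genes, as in 75.7% of all genes tested. The genes from the largest rises and falls were chosen by a rule that required this.

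The largest fall by the same rule was in GRF1-interacting factor 1, and the 15 largest falls covered regulators as well as enzymes and other proteins. GRF1-interacting factor 1, a coactivator that in Arabidopsis keeps leaf cells dividing, had 0.109, 0.160 and 0.237 FPKM in young leaves against 35.9, 29.5 and 39.2 FPKM in buds for Eucgr.H04262 (chromosome 8, 57365311 to 57367039; log2 −7.82, SE 0.22, adjusted p 4.2e-08). LIGHT-DEPENDENT SHORT HYPOCOTYLS 10, of a family of organ boundary factors, was at 0.970, 0 and 0.265 against 22.5, 20.3 and 18.1 FPKM (Eucgr.K01128, log2 −5.82, SE 0.58, adjusted p 2.1e-05), and its change was −7.34 without young leaf library 1. LOB domain-containing protein 25, Eucgr.I01750, was at 1.07, 0.365 and 1.02 against 17.5, 20.9 and 24.9 FPKM (log2 −4.91, SE 0.31, adjusted p 1.2e-06). All 3 were close to absent from young leaves. GRF1-interacting factor 1 averaged 6.48 FPKM in mature and 20.6 FPKM in senescent triploid leaves. The means of Eucgr.K01128 and Eucgr.I01750 in those stages did not exceed 0.133 FPKM.

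Cytochrome P450 78A7, of the family of the Arabidopsis organ growth gene KLUH, had 2.29, 1.96 and 2.22 FPKM in young leaves against 33.0, 31.2 and 39.3 FPKM in buds (Eucgr.H04841, log2 −4.27, SE 0.13, adjusted p 4.3e-08). The class I knotted-like genes given above changed by −3.83 (Eucgr.F00106, SE 0.10, adjusted p 3.6e-08) and −3.20 (Eucgr.H03292, SE 0.11, adjusted p 8.6e-08). The auxin carrier PIN5, Eucgr.B01405, was at 4.37, 3.03 and 3.02 against 50.4, 45.4 and 36 FPKM (log2 −3.94, SE 0.18, adjusted p 2.1e-07). The remaining falls of the 15 covered the transcription factor ERF113 (Eucgr.G01970, −4.33), dCTP pyrophosphatase 1, a nucleotide hydrolase (Eucgr.K02495, −4.31), CASP-like protein 3A1 (Eucgr.F03064, −4.28), thioredoxin H2 (Eucgr.B02586, −5.08), S-norcoclaurine synthase 1 (Eucgr.A02983, −5.35), a proline-rich protein (Eucgr.E00446, −5.18), organ-specific protein P4 (Eucgr.I01259, −4.79) and YLS9 (Eucgr.A02388, −4.50). An endochitinase, Eucgr.I02271, had 1.99, 0 and 0.0836 FPKM in young leaves against 25, 31.1 and 23.1 FPKM in buds (log2 −5.47, SE 0.80, adjusted p 0.00025), and its change was −9.13 without young leaf library 1.

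The wider list of leaf patterning factors leaned the same way, with 31 of 56 measured members lower and 11 higher (31 and 10 with length-trend offsets; median −0.80). The 2 most abundant were YABBY 1 genes, whose family marks the lower side of young leaves. Eucgr.D02474 had 189, 193 and 191 FPKM in young leaves against 327, 314 and 343 FPKM in buds (log2 −1.06, SE 0.06, adjusted p 5.4e-07), and Eucgr.E01474 had 115, 97.1 and 97 against 207, 189 and 206 FPKM (log2 −1.24, SE 0.08, adjusted p 1.8e-06). Both remained well expressed in the young leaf. In the diploid neither was called, with changes of −0.06 (Eucgr.D02474, adjusted p 0.84) and 0.35 (Eucgr.E01474, adjusted p 0.21). The whole list had 28 lower and 7 higher members there.

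Transcripts of cytosolic ribosomal proteins were lower in young leaves. Of 204 measured genes of cytosolic ribosomal proteins 180 were lower and 11 higher (171 and 15 with offsets), with a median of −1.22, or −0.68 with offsets. Their summed level was 43277 to 47544 FPKM in young leaves against 89020 to 95032 FPKM in buds. The list is not purely cytosolic, since its largest fall, Eucgr.B01531 (log2 −2.96, SE 0.29), is described as a plastid ribosomal protein L2. Eucgr.B03442, the 60S protein L34, had 902, 863 and 885 FPKM in young leaves against 1958, 2058 and 2033 FPKM in buds (log2 −1.47, SE 0.04, adjusted p 4.7e-08). The list is of short genes (median 1024 bases, against 1718 over all genes tested), and 134 of them were lower by at least 2-fold, or 30 with offsets.

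Histones, which package newly made DNA, were lower in 19 of 21 measured genes and higher in 1 (14 and 2 with offsets), with a median of −0.99, or −0.33 with offsets, and a median length of 870 bases. The H2A gene Eucgr.K03160 was at 1616, 1625 and 1759 FPKM in young leaves against 2741, 2719 and 2882 FPKM in buds (log2 −1.02, SE 0.06, adjusted p 5.4e-07), and the H2B gene Eucgr.L03005 at 1234, 1190 and 1326 against 2344, 2244 and 2564 FPKM (log2 −1.21, SE 0.07, adjusted p 8.4e-07). With offsets these changes were −0.31 and −0.42. The replication clamp PCNA, Eucgr.J01951, was at 61.7, 53.5 and 58.4 against 116, 131 and 127 FPKM (log2 −1.39, SE 0.08, adjusted p 5.2e-07), and the origin recognition subunit ORC2, Eucgr.F00239, fell with log2 −1.59 (SE 0.11, adjusted p 2.2e-06).

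Other genes of the cell cycle did not share one direction. Of 30 measured DNA replication genes 7 were lower and 3 higher (median −0.07), with offsets 18 were lower and 3 higher, and with total counts 6 were lower and 12 higher (median 0.20), so the list has no settled direction. Of 30 cyclins and cyclin-dependent kinases 13 were higher and 12 lower (13 and 9 with offsets). Kinesins and cytokinesis genes move chromosomes and build the new cell wall. Of 88 measured, 55 were higher in young leaves and 8 lower (median 0.70), and 37 and 18 with offsets (median 0.19). The list has a median length of 2694 bases. Its most abundant members went the other way. Tubulin-folding cofactor A, Eucgr.E01748, changed by −1.15 (−0.46 with offsets). The syntaxin KNOLLE, Eucgr.K03469, changed by −0.28 (−0.13 with offsets), and its FPKM overlapped between the groups. Cyclin-D3-1, which promotes division, had 174, 167 and 179 FPKM in young leaves against 126, 117 and 122 FPKM in buds (Eucgr.G01371, log2 0.23, SE 0.06, adjusted p 0.0083). The mitotic kinase CDKB2-2, Eucgr.F01814, had 149, 154 and 158 against 142, 147 and 149 FPKM, with a change of −0.21 (adjusted p 0.0084) with TMM factors and 0.15 (adjusted p 0.028) with offsets.

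Wall genes moved in different directions by family. All 10 called of 12 measured cellulose synthase catalytic subunits were higher in young leaves (median 1.11), and with length-trend offsets 6 were higher and 1 lower. Eucgr.E00821 had 52.2, 70.4 and 61.0 FPKM in young leaves against 13.2, 15.1 and 13.1 FPKM in buds (log2 1.86, SE 0.11, adjusted p 7.2e-07), and Eucgr.G03380 had 58.5, 64.2 and 58.4 against 22.9, 26.8 and 23.6 FPKM (log2 1.02, SE 0.07, adjusted p 1.8e-06). These are long genes, of 2659 and 4178 bases, and with offsets the changes were 1.43 and 0.19. Expansins, which loosen walls, were split, with 5 higher and 8 lower of 16 measured (5 and 6 with offsets; median −0.45, or 0.12 in unscaled FPKM). Expansin-A10 was at 145, 123 and 128 against 68.6, 57.2 and 63.0 FPKM (Eucgr.I01954, log2 0.79, SE 0.09, adjusted p 5.5e-05), and expansin-A1 at 508, 463 and 473 against 586, 572 and 596 FPKM (Eucgr.G02490, log2 −0.56, SE 0.05, adjusted p 1.8e-05). Of 23 xyloglucan endotransglucosylases, which cut and rejoin wall polymers, 6 were higher, led by Eucgr.B03937 (log2 2.84, SE 0.15, adjusted p 4.7e-07), and 7 were lower, among them Eucgr.J01663 (log2 −1.05, SE 0.06, adjusted p 7.4e-07). With offsets 7 were higher and 5 lower, and the list's median was −0.28, or 0.02 in unscaled FPKM.

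Most called terpene synthases were lower in young leaves. Of 23 measured terpene synthases 13 were lower and 3 higher (12 and 1 with offsets; median −1.25), and their summed level was 203 to 217 FPKM in young leaves against 638 to 706 FPKM in buds. Eucgr.D01105, a synthase of the sesquiterpene germacrene D (chromosome 4), had 59.8, 64.3 and 65 FPKM in young leaves against 306, 270 and 289 FPKM in buds (log2 −2.48, SE 0.07, adjusted p 4.2e-08). A second germacrene D synthase, Eucgr.F03400, was at 34, 35.8 and 37.8 against 144, 135 and 155 FPKM (log2 −2.30, SE 0.08, adjusted p 7e-08). The 3 libraries of a group differed little from each other in both genes.

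The list of lignin synthesis and laccase genes had no settled direction. Of 95 measured genes 40 were lower and 25 higher (42 and 25 with offsets; median −0.26), and with total counts in place of TMM factors 33 were lower and 32 higher (median 0.01). Its summed level was 4972 to 5131 FPKM in young leaves against 11896 to 13016 FPKM in buds, and a pair of genes made up most of it in buds. These code for caffeic acid 3-O-methyltransferase, which methylates lignin precursors. Eucgr.E03875 had 1211, 1218 and 1265 FPKM in young leaves against 5502, 4953 and 5554 FPKM in buds (log2 −2.40, SE 0.06, adjusted p 3.2e-08), and Eucgr.E03874 had 1120, 1102 and 1194 against 3654, 3539 and 3907 FPKM (log2 −1.98, SE 0.06, adjusted p 4.4e-08). Another, Eucgr.H00353, was at 146, 146 and 155 against 918, 795 and 978 FPKM (log2 −2.88, SE 0.09, adjusted p 5.2e-08). How reads shared by close copies were counted is not given in the sources used here, so the split between these genes is uncertain. Flavonoid genes were divided, 11 higher and 12 lower of 28 (10 and 11 with offsets; median −0.05, or 0.22 with total counts). Flavonoid 3'-monooxygenase, which adds a hydroxyl to the flavonoid ring, was at 101, 115 and 101 against 15.4, 18.9 and 14.3 FPKM (Eucgr.D01997, log2 2.43, SE 0.10, adjusted p 1.5e-07), while a probable chalcone isomerase, Eucgr.G03138, was at 429, 404 and 502 against 785, 774 and 712 FPKM (log2 −1.05, SE 0.09, adjusted p 5.7e-06).

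Markers of other cell types in the shoot also moved. Phloem genes were lower in 12 of 18 measured members and higher in 1 (12 and 2 with offsets; median −1.13), and summed to 211 to 243 FPKM in young leaves against 597 to 654 FPKM in buds. The sieve tube filament protein SIEVE ELEMENT OCCLUSION B had 73.1, 71.2 and 65 FPKM in young leaves against 267, 262 and 282 FPKM in buds (Eucgr.H00200, log2 −2.24, SE 0.06, adjusted p 4.2e-08), a second copy fell with log2 −2.89 (Eucgr.H00206, SE 0.12), and PHLOEM PROTEIN 2-LIKE A1 was at 26.3, 22.8 and 22.3 against 126, 145 and 96.0 FPKM (Eucgr.J02719, log2 −2.64, SE 0.14, adjusted p 4.7e-07). In the guard cell lineage 2 of 7 genes were higher and 3 lower, and 3 were higher and 2 lower with offsets. FAMA, a transcription factor of this lineage, was at 10.3, 10.9 and 11.8 against 0.640, 1.08 and 0.328 FPKM (Eucgr.H02788, log2 3.71, SE 0.33, adjusted p 9.7e-06). The secreted peptide EPIDERMAL PATTERNING FACTOR-like 5, Eucgr.H03415, fell to 4.77, 5.30 and 3.31 FPKM in young leaves against 15.8, 13.8 and 19.6 FPKM in buds (log2 −2.17, SE 0.21, adjusted p 1.5e-05). The part of tissue make-up in the changes of other genes was not tested.

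Most called genes of the stress and dormancy lists were lower. Of 14 measured dormancy and dehydration proteins 11 were lower and 1 higher (9 and 2 with offsets; median −1.35). The dormancy-associated protein homolog 3 had 132, 111 and 120 FPKM in young leaves against 251, 256 and 238 FPKM in buds (Eucgr.B01910, log2 −1.32, SE 0.07, adjusted p 4.7e-07). Chitinases, thaumatin-like and pathogenesis-related proteins were lower in 54 and higher in 15 of 90 measured genes (43 and 11 with offsets), although their summed level was alike, 2877 to 2968 FPKM in young leaves and 2930 to 2948 FPKM in buds. The abundant chitinase-like protein 1, linked in Arabidopsis to cellulose deposition, was higher, at 492, 486 and 478 against 260, 275 and 255 FPKM (Eucgr.H00455, log2 0.60, SE 0.05, adjusted p 3.4e-06). Heat shock proteins were lower in 27 and higher in 10 of 59 (32 and 4 with offsets), with the chaperone heat shock cognate 80 at 308, 319 and 305 against 377, 377 and 376 FPKM (Eucgr.F03673, log2 −0.56, SE 0.04, adjusted p 3.6e-06). Aquaporins, the water channels, were lower in 12 and higher in 3 of 21 (8 and 5 with offsets). The vacuolar TIP1-1 fell (Eucgr.K02438, log2 −0.69, SE 0.04, adjusted p 9.9e-07), and the plasma membrane PIP1-3 was at 50.6, 50.6 and 51.7 against 14.2, 7.47 and 8.43 FPKM (Eucgr.K02993, log2 2.06, SE 0.21, adjusted p 2.6e-05).

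Hormone genes changed in both directions. Of 60 measured auxin response genes 20 were higher and 27 lower (14 and 28 with offsets). The auxin carrier PIN4 had 51.6, 60 and 52.2 FPKM in young leaves against 6.57, 8.26 and 6.68 FPKM in buds (Eucgr.B02902, log2 2.65, SE 0.10, adjusted p 9.6e-08), opposite to PIN5 above, and the auxin repressor AUX28 was at 186, 180 and 174 against 64.1, 67.5 and 61.8 FPKM (Eucgr.K03313, log2 1.2, SE 0.06, adjusted p 2.4e-07). Of 31 cytokinin genes 10 were higher and 16 lower (9 and 15 with offsets; median −0.22, or 0.05 with total counts). LOG enzymes, which release active cytokinins, went both ways, with log2 0.90 in Eucgr.J00920 (SE 0.07, adjusted p 5.3e-06) and −6.04 in Eucgr.F01639 (SE 0.57, adjusted p 1.5e-05). Eucgr.F01639 was at 0, 0.177 and 0.0942 against 4.87, 4.29 and 5.63 FPKM, and its change was −5.44 without young leaf library 1 and −6.80 without young leaf library 2. Of 20 gibberellin genes 7 were higher and 11 lower (8 and 11 with offsets). The synthetic enzyme gibberellin 20 oxidase 2 was at 13.4, 12.3 and 15.7 against 2.08, 1.81 and 1.70 FPKM (Eucgr.H05152, log2 2.61, SE 0.15, adjusted p 6.5e-07). The small secreted gibberellin-regulated protein 1 was at 518, 472 and 443 against 1837, 1893 and 1919 FPKM (Eucgr.B03366, log2 −2.26, SE 0.06, adjusted p 4.2e-08).

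The deposited annotation was also summarised by term. Of 576 gene ontology terms with 20 to 300 tested genes, the highest median changes were in transport of xenobiotics by ATPases (1.85), starch biosynthesis (1.34), group II intron splicing (1.32), chlorophyll biosynthesis (1.18, or 0.79 with offsets) and the thylakoid lumen (1.12). The xenobiotic transporters are long genes, with a median of 5115 bases, and their median was 0.93 with length-trend offsets, against 0.91 for starch and 1.09 for intron splicing. The lowest medians were in lignan biosynthesis (−1.63), toxin breakdown (−1.63), regulation of serine/threonine phosphatases (−1.39), cytoplasmic translation (−1.37) and protein phosphatase inhibitors (−1.34). With offsets these 5 medians were −1.37, −1.14, −0.60, −0.81 and −0.58, in the same order. Of 107 KEGG pathways the highest medians were in antenna proteins (0.92), ganglio-series glycosphingolipids (0.85, or 0.41 with offsets), porphyrin and chlorophyll metabolism (0.75) and ABC transporters (0.72), the last at 0.03 with offsets. The lowest were indole alkaloid biosynthesis (−0.83), stilbenoid biosynthesis (−0.78), glutathione metabolism (−0.67) and RNA polymerase (−0.67), the last at −0.28 with offsets. These medians describe the terms and carry no test.

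Most of the largest rises went on to the mature triploid leaf, while the largest falls went either way after the young leaf. Of the 15 genes with the largest rises, 12 had a higher mean in mature than in young leaves and 13 were lower in senescent than in mature leaves. Rubisco activase Eucgr.J02030 averaged 109 FPKM in buds, then 1072 FPKM (young leaf), 4761 FPKM (mature) and 1059 FPKM (senescent). LTL1, Eucgr.B02163, was highest in the young leaf among the 4 stages, with a mature leaf mean of 9.33 FPKM and a senescent leaf mean of 0.902 FPKM, and the extensin-like Eucgr.J01410 was at 0.0964 and 0.152 FPKM in these stages. Of the 15 genes with the largest falls, 7 had a higher mean in mature than in young leaves, and 4 were lower in senescent than in mature leaves. All 15 had a lower mean in mature leaves than in buds and 12 in senescent leaves. They were chosen for high levels in these buds, which favours lower levels elsewhere, so the counts against the bud are not a result. S-norcoclaurine synthase 1, Eucgr.A02983, was highest in senescent leaves, at 269 FPKM. These are means of 3 libraries with no test between the older stages, and shares over all genes were not counted.

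**Figure D4:**
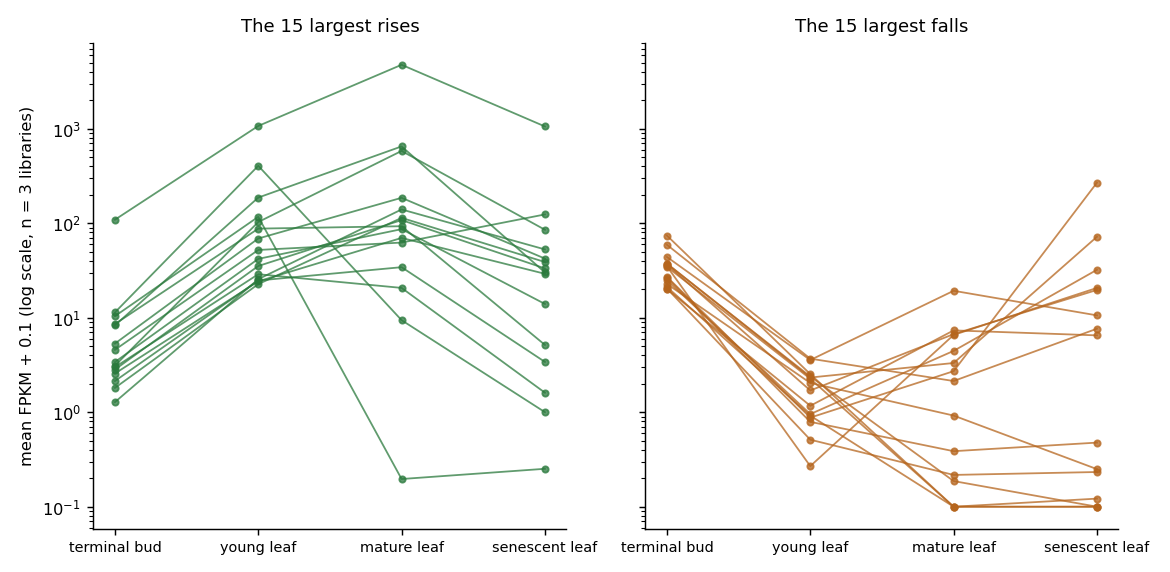
Mean FPKM plus 0.1 on a log axis, over 3 triploid libraries a stage, of the 15 genes with the largest rises (left) and the 15 with the largest falls (right) from terminal bud through young and mature to senescent leaf. Each line is a gene. Of the 15 rising genes 12 are higher in mature than in young leaves, and of the 15 falling genes 7 are. All 15 falling genes, chosen for high levels in buds, are lower in mature leaves than in buds.

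The same change in the diploid shares no library with the triploid one, and the difference between them was tested as an interaction of stage and ploidy. Of 21137 genes tested the change differed in 2459 (11.6%), with 1179 more positive (5.58%) and 1280 more negative (6.06%) in the triploid. The diploid libraries scattered more, with an SD of the log2 deviation of 0.118 to 0.335 and the largest in bud library 3. Without that library 1520 and 2046 genes differed, and without diploid young leaf library 2, the steadiest diploid one, 630 and 861. Any other difference between the triploid and diploid plants cannot be told apart from ploidy.

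Terpene synthases were among those that differed, with 10 of 25 measured genes more negative in the triploid and none more positive. Eucgr.D01105 had 59.8, 64.3 and 65 FPKM in triploid young leaves against 306, 270 and 289 FPKM in triploid buds, and 124, 187 and 108 FPKM in diploid young leaves against 88.0, 90.1 and 93.7 FPKM in diploid buds. The triploid change minus the diploid one was −3.03 (SE 0.25, adjusted p 2e-05), and −3.22 to −2.77 with any one of the 12 libraries left out. It was −3.69 (SE 0.30) in Eucgr.F03400 and −3.68 (SE 0.29) in a neighbour of the first, Eucgr.D01106. The triploid buds stood apart from the other 3 groups in the first gene. In the diploid every young leaf library was above every bud library for these 3 genes.

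The isoprenoid entry enzyme Eucgr.I00566 had 47.1, 48.9 and 49.5 FPKM in triploid young leaves against 178, 144 and 183 FPKM in triploid buds, and 64.0, 113 and 70.8 FPKM in diploid young leaves against 27.8, 27.6 and 39.0 FPKM in diploid buds (difference −3.41, SE 0.28, adjusted p 2e-05). The 3 methyltransferase genes had differences of the same sign, at −2.90 (Eucgr.E03875), −2.57 (Eucgr.E03874) and −3.38 (Eucgr.H00353). In the diploid itself Eucgr.I00566 was higher in young leaves (log2 1.33, adjusted p 0.0047). Eucgr.E03875 (0.51, adjusted p 0.14) and Eucgr.E03874 (0.59, adjusted p 0.086) were not called there. A plastid aldolase, Eucgr.B02864, was at 77.8, 75.2 and 74.0 FPKM in triploid young leaves against 177, 161 and 171 FPKM in triploid buds (difference −1.65, SE 0.14, adjusted p 2e-05). PIN5, Eucgr.B01405, was at 1.11, 0.999 and 1.68 FPKM in diploid young leaves against 2.62, 3.27 and 2.25 FPKM in diploid buds, far below the triploid buds, and its difference was −2.76 (SE 0.32, adjusted p 0.00019).

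Most called photosynthesis genes rose in both ploidies. In the diploid 18.5% of the 20594 genes tested were higher and 19.5% lower. Light-harvesting genes were higher in 16 of 21 in the diploid and none was lower (median 0.82), and 1 of them differed between the ploidies. Calvin cycle genes were higher in 25 of 47 and lower in 5 in the diploid (median 0.90), with 7 more positive and 3 more negative in the triploid. Rubisco activase Eucgr.J02030 was at 761, 878 and 921 FPKM in diploid young leaves against 189, 190 and 242 FPKM in diploid buds, and its rise was larger in the triploid by 1.03 (SE 0.14, adjusted p 0.00065). Of the cytosolic ribosomal proteins 143 of 204 were lower in the diploid and 6 higher.

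**Figure D5:**
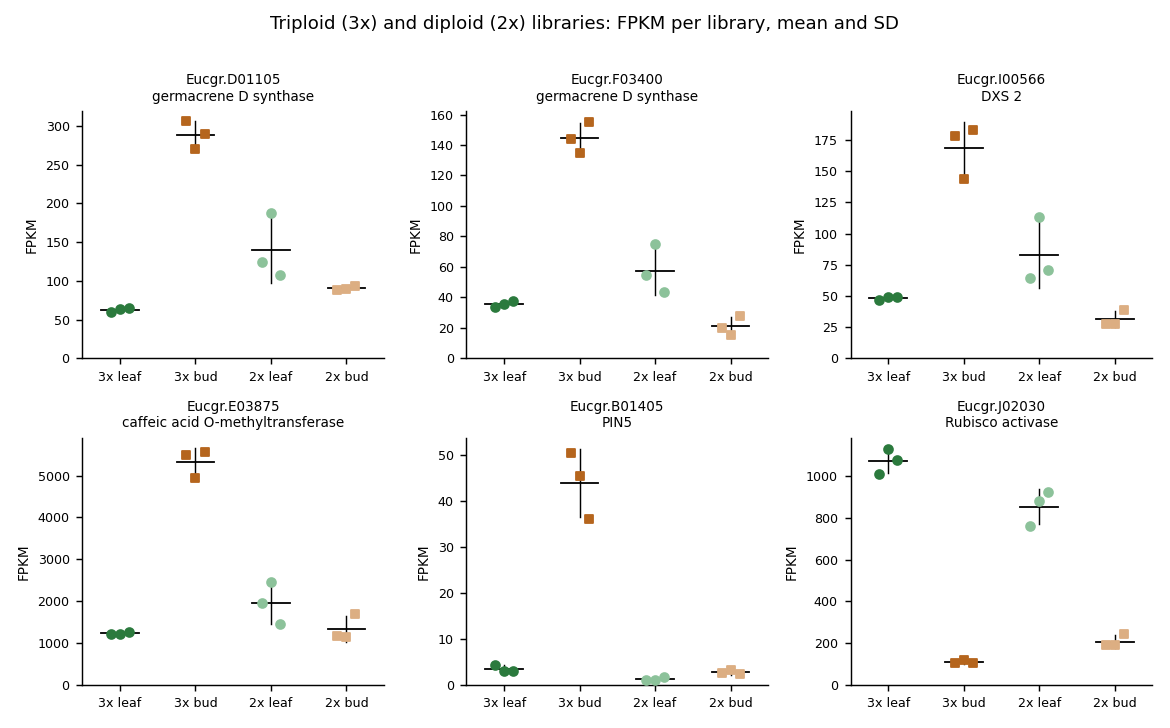
FPKM per library (vertical axes, from 0) of 6 genes in triploid (3x) young leaves and buds and in diploid (2x) young leaves and buds, with mean (bar) and SD (vertical line). In the germacrene D synthases, the isoprenoid enzyme, the methyltransferase and PIN5 the triploid buds lie above all other libraries, and Rubisco activase is higher in young leaves than in buds in both ploidies.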

How the data were processed

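RNA of terminal buds and leaves was sequenced on poly(A)-selected libraries per the labels, which name a NovaSeq, while the study's methods name a stranded total RNA kit, another Illumina instrument and RPKM. The submitters' processing notes name HISAT2 2.0, StringTie 1.3.0 and Bowtie 0.12.2, and a mouse build, whereas the genes carry *E. grandis* identifiers; the build of the coordinates is not given in the sources used here. The authors deposited 1 table with raw read counts and FPKM per gene, the FPKM being scaled by transcript length and library total but not by TMM. Of its per-sample columns, 2 matched no sample of the labels and were not used. The columns with names, ontology terms and pathways served as annotation, and 13188 of 26033 genes had an informative description.

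Counts of the 6 libraries were tested in R 4.3.3 with edgeR 4.0.16 (filterByExpr, TMM, quasi-likelihood test, young leaf minus terminal bud), p-values were Benjamini-Hochberg adjusted over the 20037 genes kept, and genes under 0.05 were called. The interaction used the 12 bud and young leaf libraries of both ploidies. Alternatives were DESeq2 1.42.0, other scalings, no filter, limma 3.58.1 on log2(FPKM + 1) or log2(FPKM + 0.1), a replicate block, leaving out each library, and, chosen after seeing the data, offsets for the trend with transcript length. With 3 libraries a group an exact permutation test of 1 gene cannot go below p = 0.1. Totals were 41525859 to 53689283 reads in the 6 libraries.

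Gene lists were keyword and term searches of the deposited annotation, some trimmed after the annotation was read. Members and lists were chosen with earlier results of these data known. Named genes were, among genes with a description, the 15 largest rises and 15 largest falls of those called, not overlapping and at 20 FPKM or more in the higher group, for each list its 2 most abundant members and its called members with the highest and lowest change, the tissue check genes, and up to 6 list members with the lowest interaction p; the text gives those that carry each group. Terms needed 20 to 300 tested genes.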

Additional observations from a re-analysis of the deposited data

Results flagged for a closer look

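The genes below come from 85 genes whose values were followed under the alternative settings. They were singled out by an adjusted p under 0.05 in edgeR's interaction test of stage and ploidy. Over all 21137 genes tested 11.6% passed. Many of the 85 were chosen for a large change in the same triploid libraries, and some for a low interaction p. The share that passed is therefore not a result about these genes, and larger changes in the triploid are favoured. Values are the triploid log2 change minus the diploid one. Of these 32 genes, 23 were called with any one of the 12 libraries left out and in the 4 other settings, and 9 lost the call in 2 to 10 of the 12 leave-outs.

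Larger rises or smaller falls in the triploid were found for S-norcoclaurine synthase 1 (2.46), gibberellin 20 oxidase 2 (1.87), phototropin-2 (1.47), PIN4 (1.26), LTL1 (1.18), Rubisco activase Eucgr.J02030 (1.03), SWEET1 (0.94) and flavonoid 3'-monooxygenase (0.85). Among those that lost the call, the J-domain protein Eucgr.F01546 (0.76) was called in 10 of 12 leave-outs, ERD6-like 6 (1.43) in 8, Rubisco activase Eucgr.B02310 (0.93) in 7 and ADP-glucose pyrophosphorylase (0.99) in only 2.

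More negative changes in the triploid were found for the germacrene D synthases Eucgr.F03400 (−3.69), Eucgr.D01106 (−3.68) and Eucgr.D01105 (−3.03), the isoprenoid enzyme Eucgr.I00566 (−3.41), the methyltransferases Eucgr.H00353 (−3.38), Eucgr.E03875 (−2.90) and Eucgr.E03874 (−2.57), YLS9 (−3.08), PIN5 (−2.76), the proline-rich protein Eucgr.E00446 (−2.37), PHLOEM PROTEIN 2-LIKE A1 (−2.20), chalcone isomerase 3 (−1.97), the plastid aldolase Eucgr.B02864 (−1.65) and the YABBY 1 genes Eucgr.E01474 (−1.60) and Eucgr.D02474 (−1.0). Most leave-outs lost the calls of thioredoxin H2 (−2.10), GRF1-interacting factor 1 (−1.33) and PCNA (−0.63), each called in 5 of 12, CASP-like protein 3A1 (−1.39), called in 4, and histone H2A Eucgr.K03160 (−0.63), called in 3. PCNA was called in 2 of the 4 other settings, and thioredoxin H2, CASP-like protein 3A1 and histone H2A in 3. Why the ploidies differ was not tested.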

How the results depend on the processing

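For single genes in the triploid change, 1434 values under the alternatives kept their direction and their side of the threshold, 5 lost the call and 6 reversed, and for the interaction 448 did and 64 lost the call. The reversals were the antenna gene Eucgr.E02381 with length-trend offsets (0.14), and CDKB2-2 (Eucgr.F01814) with these offsets (0.15), with total counts only (0.06) and in limma on log2(FPKM + 0.1), on log2(FPKM + 1) and without a filter (0.07 in each). The cellulose synthases called higher numbered 6 with length-trend offsets, against 10. For the interaction, genes more positive in the triploid numbered 1894 with DESeq2 and 2274 with limma, against 1179, and genes more negative numbered 2063 with length-trend offsets, against 1280. Leaving out 1 library each gave 630 to 1636 more positive genes (lowest without diploid young leaf 2, highest without diploid young leaf 3) and 861 to 2046 more negative genes (lowest without diploid young leaf 2, highest without diploid bud 3).

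The replicate numbers were not taken to pair the samples: the deviations of same-numbered young leaf and bud libraries correlated at 0.032, 0.111 and 0.079, although each library matched its own number best. A fit with the replicate block called 6820 genes higher and 6450 lower, against 7011 and 6616. Limits are the 3 libraries a group, the trend with transcript length and the scaling, and genes under the count filter (5996) were not tested.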
